A study of Mus musculus with 6 samples.

Results

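The genes described here encode the receptor for macrophage colony-stimulating factor (M-CSF), the related receptors for GM-CSF and G-CSF, and the adaptors that carry the M-CSF signal inward. They are *Csf1r*, *Csf2ra*, *Csf2rb*, *Csf3r*, *Gab2*, *Gab3* and *Grb2*, 7 of the 55573 genes in the deposited counts. They were chosen by name, with earlier results of these data known. All 7 had enough counts to be tested. Their RNA was measured by RNA-Seq in 6 cultures of male mouse osteoclasts, 3 control and 3 Rosa-Hes1. Bone marrow–derived macrophages (BMMs) of 10-week-old mice had been kept for 4 days in M-CSF (30 ng/ml) together with the ligand that makes them differentiate, RANKL (10 ng/ml). Rosa-Hes1 cells came from Ctsk Cre/WT;Rosa Hes1 mice, in which Cre knocked into the cathepsin K gene, switched on as osteoclasts mature, excises a Neo-STOP cassette and so releases *Hes1* coding sequence, joined to an IRES-GFP, from the *Rosa26* locus. The labels call the controls wild type, where the study describes control littermates from a cross that gives Rosa [STOP]Hes1 animals. All 6 cultures received the same M-CSF and RANKL, and the labels describe them as biological replicates.

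M-CSF binds CSF1R, a receptor tyrosine kinase also known as c-FMS, on macrophages and osteoclast precursors. The activated receptor carries phosphotyrosines that GRB2 reads, and GRB2 brings along SOS, which loads RAS, and the docking proteins GAB2 and GAB3, which in turn gather PI3 kinase and the phosphatase SHP2. GAB2 also binds RANK, the receptor of RANKL, and mice without it form fewer osteoclasts. GM-CSF, which diverts precursors toward the dendritic cell fate, acts through an α chain (CSF2RA) and the β common chain (CSF2RB), and G-CSF acts through CSF3R, best known on neutrophils.

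Per kilobase of exon, *Csf1r* had the highest level of the 7 in every library, and none of the 7 passed the test for a difference between Rosa-Hes1 and control osteoclasts. *Csf1r*, *Csf2rb* and *Gab2* lay higher in all 3 Rosa-Hes1 libraries than in any control library, by 1.19-fold to 1.35-fold. *Grb2* and *Csf2ra* overlapped between the groups with fitted changes of 1.03-fold and 1.04-fold. *Csf3r* and *Gab3*, the lowest, overlapped with fitted changes of 0.892-fold and 0.783-fold. The test was edgeR's quasi-likelihood test with Benjamini-Hochberg adjustment over the 16954 genes whose counts added up to 10 or more across the 6 libraries, at a threshold of 0.05. It called 8.25% of those genes (5.85% higher and 2.41% lower) and 0 of 7 here. At an unadjusted p under 0.05 the numbers were 25.7% of all tested genes and 3 of the 7. DESeq2 called 2 of the 7 (*Csf1r* and *Csf2rb*) where it called 12.8% of all genes, and limma-voom called 1 (*Csf1r*) where it called 7.54%. The upper quartile called 1 of the 7 and 8.76% of all genes, and leaving out the filter on low counts 2 of the 7 and 7.84%. The filterByExpr filter gave 1 of the 7 and 11.8%, 1 surrogate variable 2 of the 7 and 13.9%, and leaving out Rosa-Hes1 replicate 2 gave 3 of the 7 and 16.1%. The groups did not overlap, with Rosa-Hes1 higher, for 3 of the 7 and for 16.6% of all tested genes, and in either direction for 3 of the 7 and 31.2%. The median log2 fold change was 0.05 over the 7 and -0.01 over all tested genes.

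A library held 13038362 to 15956331 counts in genes. Levels are given as CPM, which scales the counts to library size after TMM normalization. *Hes1* itself was at 0.457 ± 0.141 CPM among controls and 5.56 ± 1.17 CPM among Rosa-Hes1 libraries (SD, n = 3 each, log2 fold change 3.57, edgeR adjusted p = 0.00477), which fits the labels. Of 11 genes that mark osteoclasts, 10 rose and 0 fell, *Ctsk* being the one that did not pass (log2 fold change 0.08, edgeR adjusted p = 0.709). Their summed level was 10999 to 14138 CPM in control and 17507 to 20440 CPM in Rosa-Hes1 libraries. The study reports most of these genes, such as *Acp5*, *Calcr*, *Oscar* and *Itgb3*, as increased in the same RNA-Seq, so the count is not an independent result. *Ctsk* is also the gene that carries Cre in Rosa-Hes1 mice, and the study's genotype for the controls names no Cre. Any effect of this on the *Ctsk* level was not tested. Rosa-Hes1 replicate 2 had the lowest osteoclast marker sum of its group, of which *Mmp9* alone was 7508 CPM. In this library *Ctsk*, *Acp5*, *Oscar*, *Mmp9*, *Atp6v0d2* and *Dcstamp* were at their lowest of the group. *Nfatc1* and *Car2* were at their highest there, and *Calcr*, *Itgb3* and *Ocstamp* were in between. Without Rosa-Hes1 replicate 2 edgeR called 2646 genes in place of 1399, and without any other single library 265 to 815.

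**Figure D1:**
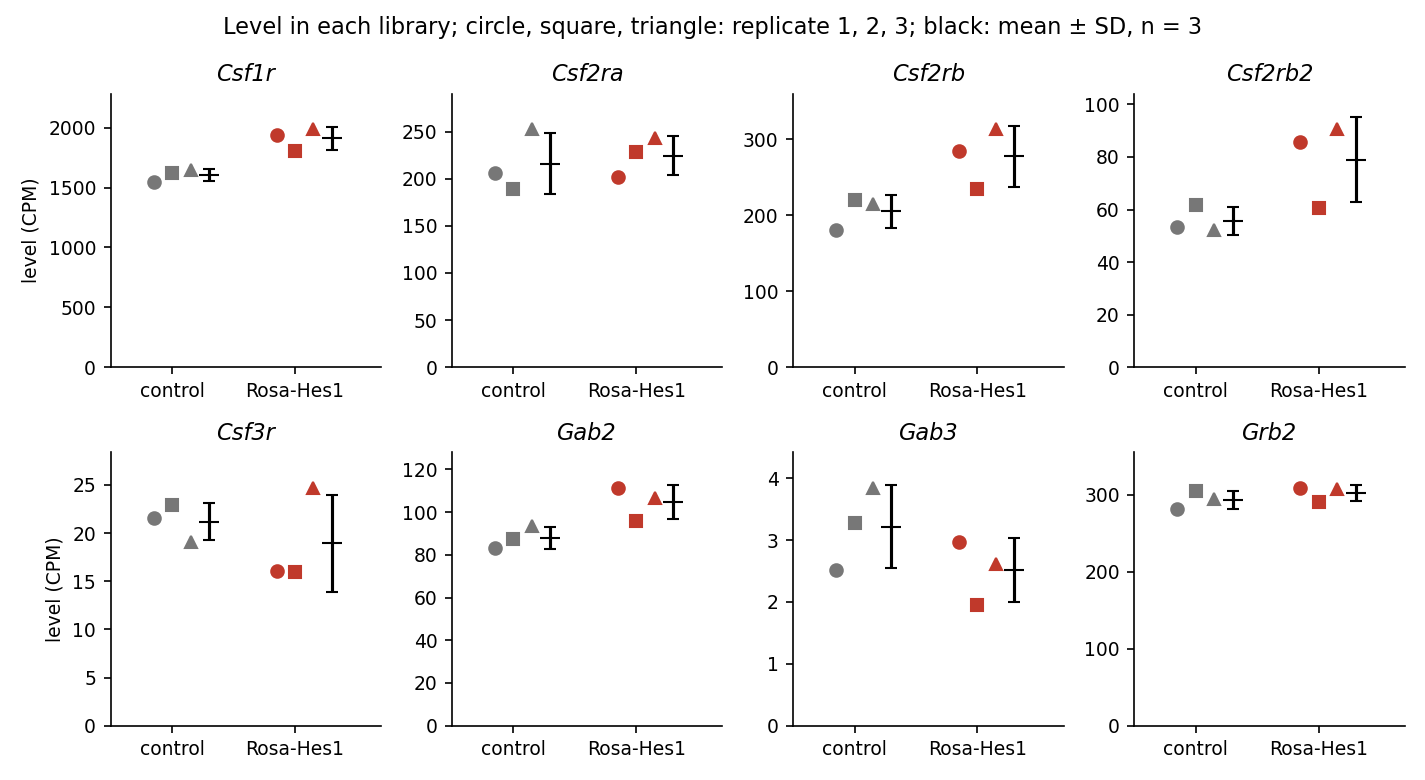
Level in CPM (y axis, from 0) of the 7 genes and of *Csf2rb2*, the near copy of *Csf2rb*, in each control (grey) and Rosa-Hes1 (red) library, with the mean ± SD of 3 in black. The groups stand apart for *Csf1r*, *Csf2rb* and *Gab2*, and Rosa-Hes1 replicate 2 (red square) is the library of its group closest to the controls for each of these 3.

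*Csf1r* (ENSMUSG00000024621, GRCm38 chromosome 18 from 61100598 to 61132149, plus strand) encodes the M-CSF receptor. It had 1547, 1619 and 1644 CPM in control and 1937, 1806 and 1987 CPM in Rosa-Hes1 libraries. The lowest Rosa-Hes1 library was thus above the highest control. The means were 1603 ± 49.99 and 1910 ± 93.5 CPM (SD, n = 3 each). The difference was 1.19-fold (95% interval 1.07 to 1.33; log2 fold change 0.25, SE 0.07) and missed the threshold (edgeR adjusted p = 0.0554). Of the exon bases of *Csf1r*, 15.1% lie opposite exons of *Hmgxb3*, and for these stranded libraries no source used here says whether the counting used strand. *Hmgxb3* had 45.8 to 52.5 CPM over the 6 libraries and a log2 fold change of -0.01 (edgeR adjusted p = 0.975).

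Over 15 other ways of analysis the log2 fold change of *Csf1r* was 0.22 to 0.29, and its adjusted p was under 0.05 in 7 of them (0.00692 to 0.181 over all 15). The calls were with the DESeq2 Wald test, limma-voom, the upper quartile, both other filters on low counts, 1 surrogate variable, and without Rosa-Hes1 replicate 2. Without any other single library the adjusted p was 0.105 to 0.181. Whole cultures were sequenced, in which more cells of a type and more RNA per cell cannot be told apart. The osteoclast markers differed between the same groups, and their part in the level of *Csf1r* was not tested. Of 10 macrophage markers, *Cd68* rose, *Cx3cr1* fell and 8 did not pass, where 8.25% of all tested genes were called. The median log2 fold change of the 10 was -0.15, against -0.01 over all tested genes, and only that of *Cd68* was above 0. The summed level of the macrophage markers was 3749 to 4781 CPM in control and 3611 to 4666 CPM in Rosa-Hes1 libraries, so that it overlapped. *Adgre1* alone had 1467 to 2325 CPM over the 6 libraries. The part of the macrophage markers in the level of *Csf1r* was not tested either.

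**Figure D2:**
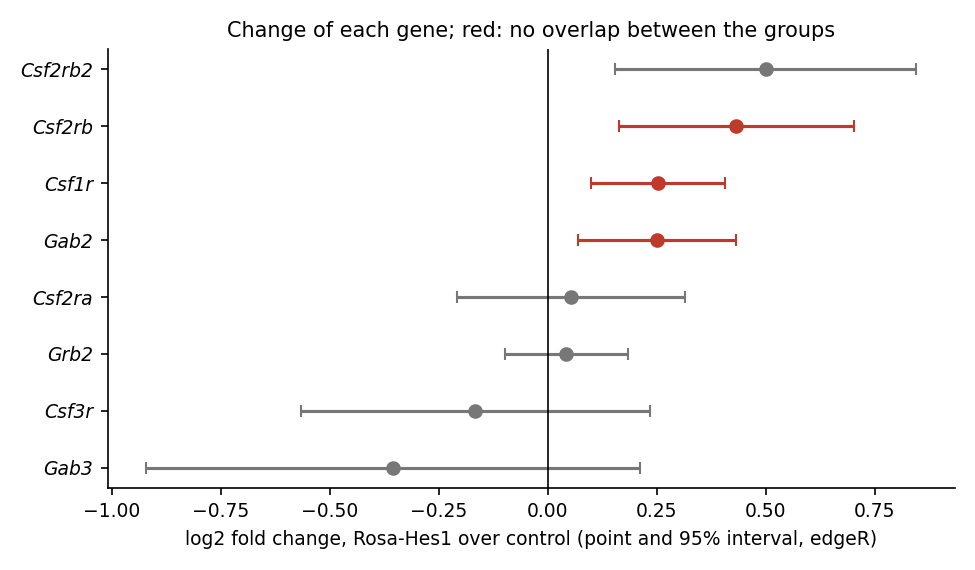
Log2 fold change of Rosa-Hes1 over control osteoclasts (x axis) for each gene, with the 95% interval from edgeR. Intervals of *Csf1r*, *Csf2rb*, *Gab2* and *Csf2rb2* lie above 0 before adjustment for the number of genes, while those of *Csf2ra*, *Grb2*, *Csf3r* and *Gab3* include 0.

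The ligands of these receptors were scarce in the cultures, which received M-CSF from outside. None of the 3 ligand genes with enough counts passed the test, 0 did at an unadjusted p under 0.05, and DESeq2 and limma-voom called 0. *Csf1*, which encodes M-CSF, had 25.3, 7.92 and 6.66 CPM in control and 7.52, 16.2 and 4.22 CPM in Rosa-Hes1 libraries. Control replicate 1 and Rosa-Hes1 replicate 2 were the high libraries of their groups, and the groups overlapped (log2 fold change -0.50, SE 0.73, edgeR adjusted p = 0.742). *Il34*, the second ligand of CSF1R, had 1.45 to 4.37 CPM over the 6 libraries (log2 fold change 0.16, edgeR adjusted p = 0.857). *Csf3*, the gene for G-CSF, had 0.132 to 1.18 CPM (log2 fold change -1.14, SE 0.55, edgeR adjusted p = 0.235). *Csf2*, the gene for GM-CSF, had 1 count in Rosa-Hes1 replicate 3 and 0 in the other libraries. *Il3* and *Il5*, whose proteins use the same β chain, had 0 counts in all 6, which allows up to 0.188 to 0.230 CPM per library at 3 counts, for counting error only.

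*Csf1* and the genes of type I collagen, which stromal cells and osteoblasts make, were high and low in the same libraries, while *Dcn*, *Pecam1* and *Cdh5*, from the same marker list, were not. *Col1a1* had 244, 86.2 and 85.9 CPM in control and 132, 188 and 53.0 CPM in Rosa-Hes1 libraries. For both genes control replicate 1 was the highest library, Rosa-Hes1 replicate 2 the next and Rosa-Hes1 replicate 3 the lowest. Over the whole list of 7 stroma and vessel markers, all tested and none called, the summed level was 180 to 475 CPM in control and 124 to 372 CPM in Rosa-Hes1 libraries. Most of that sum was collagen. *Dcn*, another gene of stromal cells, had 2.58, 5.70 and 6.36 CPM in control and 8.77, 6.46 and 11.4 CPM in Rosa-Hes1 libraries, lowest where *Csf1* was highest and highest where *Csf1* was lowest (log2 fold change 0.86, SE 0.33, edgeR adjusted p = 0.155). The vessel genes *Pecam1* (1.33 to 3.93 CPM) and *Cdh5* (0.457 to 2.11 CPM) were also highest in Rosa-Hes1 replicate 3. None of the 7 was at 0 in every library, though *Lum* stayed at or under 0.221 CPM. The part of such cells in the level of *Csf1* was not tested.

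**Figure D3:**
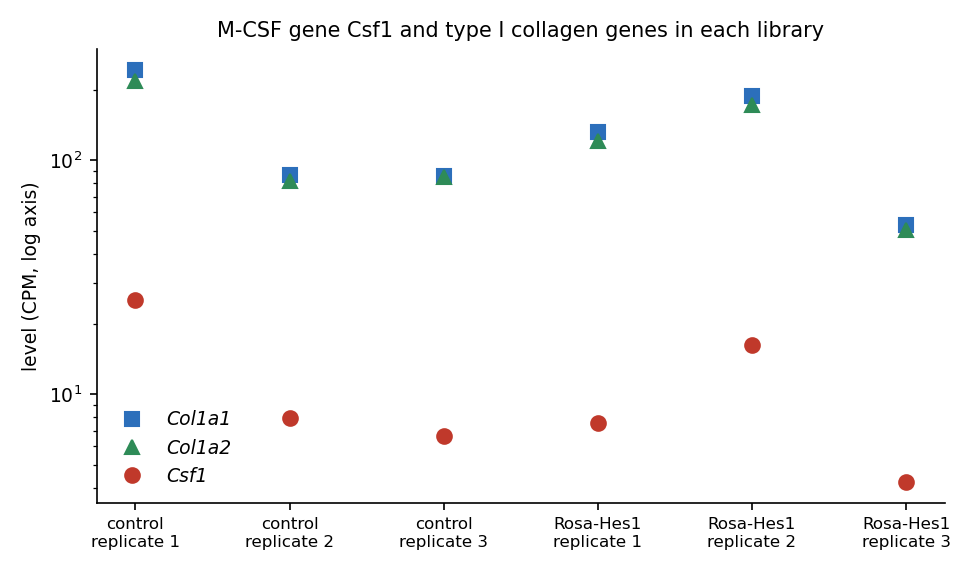
Level in CPM (log axis) of *Csf1*, *Col1a1* and *Col1a2* in each of the 6 libraries. *Csf1* is highest in control replicate 1 (25.3 CPM) and lowest in Rosa-Hes1 replicate 3 (4.22 CPM), and both collagen genes have their highest and lowest values in the same libraries.

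The GM-CSF receptor is made of an α and a β chain, and no difference between the changes of these chains was tested. *Csf2ra* (ENSMUSG00000059326, GRCm38 chromosome 19 from 61223957 to 61228429, minus strand) encodes the α chain that binds GM-CSF itself. It had 207, 189 and 253 CPM in control and 202, 229 and 243 CPM in Rosa-Hes1 libraries. The highest of the 6 was a control library, and the groups overlapped throughout (1.04-fold, 95% interval 0.866 to 1.25; log2 fold change 0.05, SE 0.11, edgeR adjusted p = 0.821). Its adjusted p was 0.308 to 0.977 over 15 other ways of analysis, none of which called it.

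*Csf2rb* (ENSMUSG00000071713, GRCm38 chromosome 15 from 78325752 to 78353847, plus strand) encodes the β common chain, which carries the signal of the GM-CSF, IL-3 and IL-5 receptors. It had 181, 221 and 215 CPM in control and 285, 235 and 313 CPM in Rosa-Hes1 libraries. The groups did not overlap, but Rosa-Hes1 replicate 2 lay close to the controls. The means were 206 ± 21.7 and 278 ± 39.8 CPM (SD, n = 3 each), a 1.35-fold difference (95% interval 1.12 to 1.63; log2 fold change 0.43, SE 0.12) that missed the threshold (edgeR adjusted p = 0.0592). Of the 15 other ways of analysis 4 called it (adjusted p 0.00466 to 0.181 over all 15): no filter on low counts, the DESeq2 Wald test, 1 surrogate variable, and leaving out Rosa-Hes1 replicate 2, which gave a log2 fold change of 0.54 and an adjusted p of 0.00904. Without any other single library the adjusted p was 0.0963 to 0.181. Per kilobase of exon, the ratio of *Csf2rb* to *Csf2ra* was 0.345, 0.460 and 0.336 in control and 0.557, 0.405 and 0.509 in Rosa-Hes1 libraries, so that the ratios overlapped.

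Mice carry a second β chain gene beside *Csf2rb*. *Csf2rb2* (ENSMUSG00000071714, GRCm38 chromosome 15 from 78282507 to 78305721, minus strand) arose by duplication, and its product serves IL-3 alone. Its coding sequence was identical to that of *Csf2rb* at 95.4% of 2626 aligned bases, so paired reads of 75 bases may match both genes. In exon 7 of both genes a stretch of 75 coding bases has no difference, and it is shown because a read that covers it matches both genes (chr15:78341391-78341465 on the plus strand for *Csf2rb* and chr15:78291844-78291918 on the minus strand for *Csf2rb2*):
Csf2rb and Csf2rb2, exon 7: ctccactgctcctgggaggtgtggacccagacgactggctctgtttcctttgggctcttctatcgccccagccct
The stretch with the most differences, 14 of 75 bases in exon 4, is shown because reads there tell the genes apart, and the capitals mark the bases that differ (chr15:78338905-78338979 on the plus strand and chr15:78294352-78294426 on the minus strand):
Csf2rb, exon 4: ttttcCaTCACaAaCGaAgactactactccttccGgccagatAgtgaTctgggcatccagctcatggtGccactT
Csf2rb2, exon 4: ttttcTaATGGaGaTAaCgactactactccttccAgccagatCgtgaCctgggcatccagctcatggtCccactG
Of the 1490 aligned windows of 75 coding bases that lie within an exon, 335 (22.5%) had no difference. Over all annotated transcripts, which include untranslated sequence, 7.15% of the 75-base windows of *Csf2rb* and 10.6% of those of *Csf2rb2* occurred in the other gene. Both levels are therefore uncertain by reads that could not be placed.

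*Csf2rb2* had 53.4, 61.8 and 52.1 CPM in control and 85.7, 60.5 and 90.6 CPM in Rosa-Hes1 libraries. Rosa-Hes1 replicate 2 fell among the controls, and the other Rosa-Hes1 libraries were above them (log2 fold change 0.50, SE 0.15, edgeR adjusted p = 0.0808). Its share of the counts of both β chain genes was 21.4 ± 1.72% in control and 22.0 ± 1.37% in Rosa-Hes1 osteoclasts (SD, n = 3 each). With the counts of both genes summed, the log2 fold change was 0.45 and the adjusted p 0.0581 in edgeR, so the sum missed the threshold as *Csf2rb* alone did. *Il3ra*, the α chain of the IL-3 receptor, had 18.6 to 28.3 CPM over the 6 libraries (log2 fold change -0.11, edgeR adjusted p = 0.742), and *Il5ra*, that of the IL-5 receptor, had 1 count in control replicate 1 and 0 elsewhere.

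Genes of dendritic cells, which GM-CSF promotes, were low and are given beside *Csf2rb*. Of the 8 listed, 7 had enough counts and *Itgax*, the integrin chain CD11c, rose (log2 fold change 0.82, edgeR adjusted p = 0.0178), while *Cd209a* had 0 counts. Their summed level was 36.8 to 45.2 CPM in control and 66.3, 47.4 and 75.5 CPM in Rosa-Hes1 replicates 1, 2 and 3. Rosa-Hes1 replicate 2 was again the library closest to the controls. The median log2 fold change over the 7 was 0.58. At an unadjusted p under 0.05 there were 3 of the 7, against 25.7% of all tested genes. DESeq2 called 3 of the 7 and limma-voom 1, against 12.8% and 7.54% of all tested genes. The main edgeR test called 1 of the 7, against 8.25%. *Cd74* and *H2-Ab1* had log2 fold changes of 0.58 and 1.07 (edgeR adjusted p = 0.126 and 0.104), and *Zbtb46* and *Ccr7* of 0.06 and 0.05. *Clec9a* stayed at or under 0.330 CPM and *Xcr1* at or under 2.09 CPM. The part of such cells in the level of *Csf2rb* was not tested.

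*Csf3r* (ENSMUSG00000028859, GRCm38 chromosome 4 from 126024550 to 126044440, plus strand) encodes the G-CSF receptor. It had 21.6, 22.9 and 19.1 CPM in control and 16.1, 15.99 and 24.7 CPM in Rosa-Hes1 libraries. The highest library and the lowest were both Rosa-Hes1 (0.892-fold, 95% interval 0.676 to 1.18; log2 fold change -0.17, SE 0.17, edgeR adjusted p = 0.619). Without Rosa-Hes1 replicate 3, the high library, the log2 fold change was -0.41 and the adjusted p 0.111. The 12 neutrophil markers, all tested and none called (1 at an unadjusted p under 0.05, 0 with DESeq2 or limma-voom), summed to 355 to 631 CPM in control and 353 to 447 CPM in Rosa-Hes1 libraries. Control replicate 1 had the highest sum, where *Csf3r* was highest in Rosa-Hes1 replicate 3. The median log2 fold change of the 12 neutrophil markers was -0.33. *S100a9*, one of these markers, had 86.5 to 165 CPM. Neutrophil genes were therefore present in every culture, and their part in the level of *Csf3r* was not tested.

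Among receptor tyrosine kinases of the same class as CSF1R, *Kit* had 0.518 to 1.62 CPM, *Flt3* 0.00 to 0.654 CPM, *Pdgfra* 0.433 to 1.58 CPM and *Pdgfrb* 4.66 to 9.74 CPM over the 6 libraries. Each overlapped between the groups, and their adjusted p in edgeR was 0.320 to 0.897. Of the 6 related receptor chains with enough counts, none was called (1 at an unadjusted p under 0.05, which was *Csf2rb2*, 1 with DESeq2 and 0 with limma-voom).

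The adaptors come next, from GRB2 to the GAB proteins. *Grb2* (ENSMUSG00000059923, GRCm38 chromosome 11 from 115644045 to 115708597, minus strand) encodes the adaptor that joins phosphorylated receptors to SOS and to GAB proteins. It had 282, 305 and 294 CPM in control and 309, 290 and 308 CPM in Rosa-Hes1 libraries. The groups overlapped, and the libraries lay closer together than for any other member. The difference was 1.03-fold, with a 95% interval from 0.934 to 1.14 (log2 fold change 0.04, SE 0.06, edgeR adjusted p = 0.728), the narrowest of the 7. None of the 15 other ways of analysis called it (adjusted p 0.489 to 0.941).

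*Gab2* (ENSMUSG00000004508, GRCm38 chromosome 7 from 97081586 to 97308946, plus strand) encodes the docking protein shared by the M-CSF receptor and RANK. It had 83.3, 87.3 and 93.3 CPM in control and 111, 95.8 and 107 CPM in Rosa-Hes1 libraries. The groups did not overlap, though control replicate 3 and Rosa-Hes1 replicate 2 lay side by side. The means were 87.98 ± 5.04 and 105 ± 8.04 CPM (SD, n = 3 each), a 1.19-fold difference (95% interval 1.05 to 1.35; log2 fold change 0.25, SE 0.08) that missed the threshold (edgeR adjusted p = 0.0887). The only one of the 15 other ways of analysis that called it left out Rosa-Hes1 replicate 2 (log2 fold change 0.31, adjusted p 0.0238). The adjusted p of *Gab2* was 0.0518 to 0.261 in the other 14.

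*Gab3* (ENSMUSG00000032750, GRCm38 chromosome X from 74966843 to 75085458, minus strand) encodes a GAB protein of macrophages and lymphoid cells. It had 2.51, 3.28 and 3.85 CPM in control, from 34, 53 and 52 counts, and 2.97, 1.96 and 2.62 CPM in Rosa-Hes1 libraries, from 45, 30 and 36 counts. The groups overlapped, and so few counts leave a wide interval (0.783-fold, 95% interval 0.528 to 1.16; log2 fold change -0.35, SE 0.25, edgeR adjusted p = 0.427). *Gab1*, the third GAB gene, had 4.95 to 9.32 CPM (log2 fold change 0.02, edgeR adjusted p = 0.986).

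**Figure D4:**
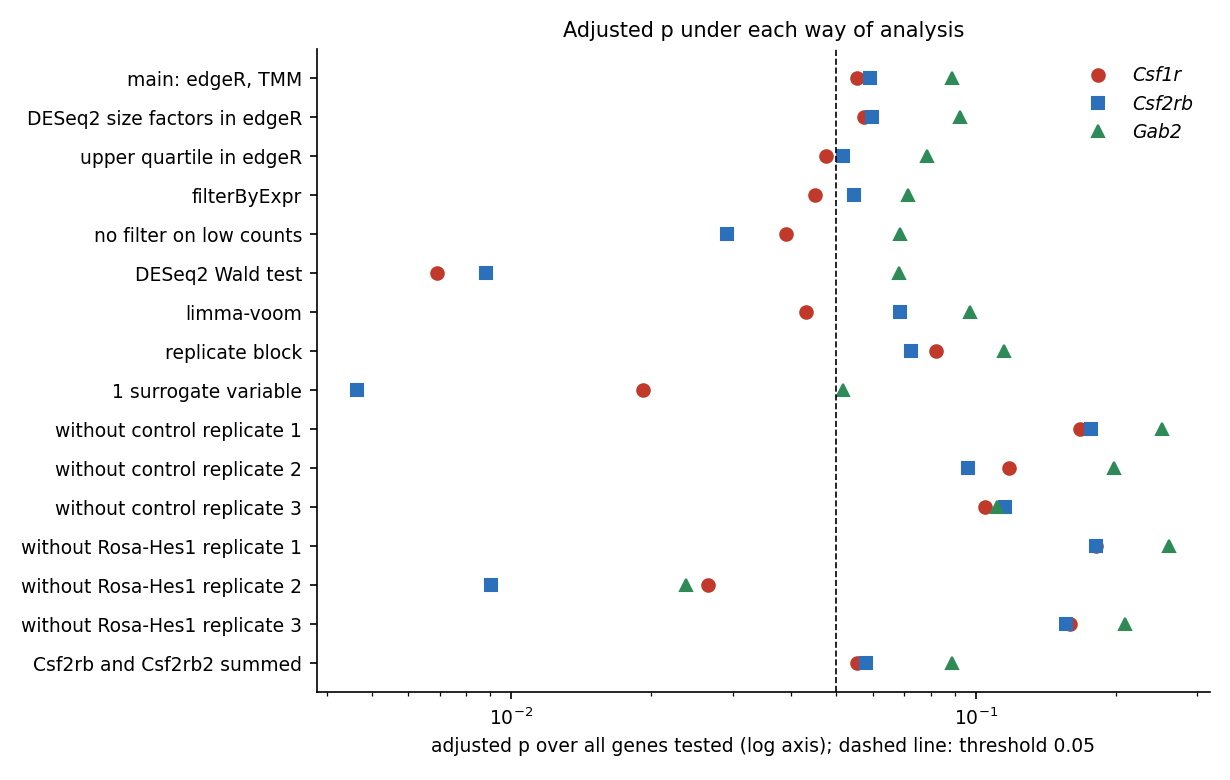
Adjusted p over all genes tested (x axis, log scale) of *Csf1r*, *Csf2rb* and *Gab2* under the main analysis and 15 others, with the threshold of 0.05 as a dashed line. Leaving out Rosa-Hes1 replicate 2 places all 3 genes below the threshold, and leaving out any other library places none there.

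Levels of different genes were compared as CPM per kilobase of exon, the union of a gene's annotated exons. *Csf1r* had 278 ± 8.66 in control and 331 ± 16.2 in Rosa-Hes1 osteoclasts (SD, n = 3 each). It was followed by *Grb2* with 101 ± 3.87 and 104 ± 3.60, *Csf2ra* with 75.3 ± 11.4 and 78.2 ± 7.28, *Csf2rb* with 28.3 ± 2.98 and 38.2 ± 5.47, and *Gab2* with 14.3 ± 0.817 and 16.97 ± 1.30 (control and Rosa-Hes1, SD, n = 3 each). *Csf3r* had 5.87 ± 0.538 and 5.25 ± 1.39, and *Gab3* 0.825 ± 0.172 and 0.646 ± 0.132 on the same scale. This order of the 7 was the same in all 6 libraries, and no neighbours in it overlapped over the libraries. The smallest step was that from *Grb2* to *Csf2ra*, where the lowest library of *Grb2* had 96.7 and the highest of *Csf2ra* 88.0. *Csf1r* exceeded *Grb2* by 2.98-fold in the mean over the 6 libraries. *Csf2rb2*, at 11.8 ± 1.12 in control and 16.7 ± 3.41 in Rosa-Hes1 osteoclasts, overlapped with *Gab2*.

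**Figure D5:**
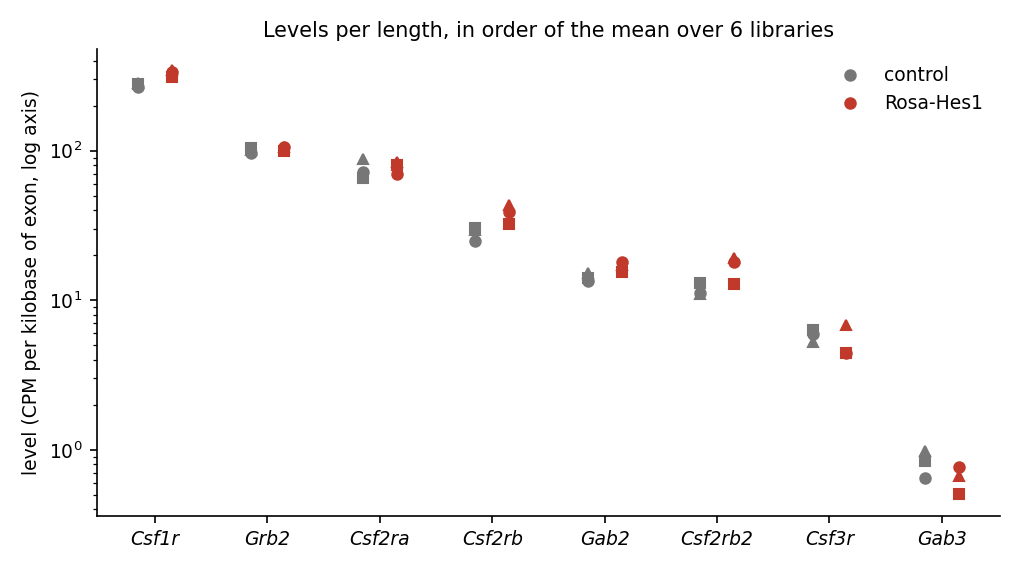
Level in CPM per kilobase of exon (log axis) of the 7 genes and *Csf2rb2* in each control (grey) and Rosa-Hes1 (red) library, in order of the mean over 6 libraries. *Csf1r* lies between 268 and 344 and *Gab3* between 0.503 and 0.988.

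Genes that act around these receptors were counted in lists, with 8.25% of all tested genes called. Of 15 other adaptors, 2 were higher, 0 lower and 13 did not pass, with a median log2 fold change of 0.04. *Cblb*, a ubiquitin ligase that tags activated receptors, rose, with a mean ± SD of 68.8 ± 6.03 CPM among controls and 94.4 ± 6.17 CPM among Rosa-Hes1 libraries (n = 3 each, log2 fold change 0.45, SE 0.08, edgeR adjusted p = 0.0177). *Dok3*, an adaptor that restrains receptor signals, rose, with a mean ± SD of 130.5 ± 5.40 CPM among controls and 164 ± 8.40 CPM among Rosa-Hes1 libraries (n = 3 each, log2 fold change 0.33, SE 0.07, edgeR adjusted p = 0.0230). With single libraries left out, *Cblb* kept the call in 2 of 6 fits and *Dok3* in 1 of 6 (adjusted p up to 0.0742 and 0.0907). *Cbl*, the close relative of *Cblb*, had a log2 fold change of -0.18 (edgeR adjusted p = 0.143). *Dok1* and *Dok2*, relatives of *Dok3*, had log2 fold changes of 0.12 (edgeR adjusted p = 0.356) and -0.29 (edgeR adjusted p = 0.226).

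In the list of PI3 kinase, AKT and related genes, 1 of 16 was higher, 2 were lower and 13 did not pass, with a median log2 fold change of 0.01. *Pik3cb*, the catalytic subunit p110β, rose, with a mean ± SD of 187 ± 27.3 CPM among controls and 293 ± 22.6 CPM among Rosa-Hes1 libraries (n = 3 each, log2 fold change 0.65, SE 0.11, edgeR adjusted p = 0.0125). *Pik3cg*, the subunit p110γ that responds to G protein-coupled receptors, fell, with a mean ± SD of 164 ± 16.6 CPM among controls and 120.03 ± 8.56 CPM among Rosa-Hes1 libraries (n = 3 each, log2 fold change -0.45, SE 0.09, edgeR adjusted p = 0.0222). With 1 library left out, the adjusted p reached 0.0624 for *Pik3cb* and 0.0804 for *Pik3cg*.

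No gene passed among the 16 of the RAS and ERK cascade (3 at an unadjusted p under 0.05, 2 with DESeq2, 0 with limma-voom; median log2 fold change 0.00). The same held for the 8 of JAK and STAT (2, 0 and 0; median -0.05), the 12 phosphatases and feedback inhibitors (4, 3 and 0; median 0.03) and the 7 transcription factors known to act on *Csf1r* (4, 2 and 0; median -0.11). Over all tested genes the shares were 25.7% at an unadjusted p under 0.05, 12.8% with DESeq2 and 7.54% with limma-voom. The groups did not overlap for 3 of the 7 transcription factors and for 31.2% of all tested genes. The 3 factors are named after their values were seen. *Spi1*, which encodes PU.1, was higher with a log2 fold change of 0.17 (edgeR adjusted p = 0.127). *Cebpa*, the gene of C/EBPα, and *Irf8*, which holds back osteoclast formation, were lower with log2 fold changes of -0.57 (edgeR adjusted p = 0.0705) and -0.38 (edgeR adjusted p = 0.0925), and neither passed the test. The highest Rosa-Hes1 and lowest control libraries nearly met, at 22.71 and 22.84 CPM for *Cebpa* and 54.02 and 54.05 CPM for *Irf8*. Of 15 other ways of analysis, 4 called *Cebpa*, 4 called *Irf8* and 0 called *Spi1*. The study reports *Irf8* as decreased in the same RNA-Seq. In the list of receptor shedding, 1 of 4 was called. That gene was *Rhbdf1*, a pseudoprotease partner of ADAM17, which rose, with a mean ± SD of 10.5 ± 1.60 CPM among controls and 15.9 ± 1.32 CPM among Rosa-Hes1 libraries (n = 3 each, log2 fold change 0.59, SE 0.13, edgeR adjusted p = 0.0332). Its adjusted p reached 0.117 with 1 library left out. Across these pathway lists 6 genes were called with all libraries, 13 without Rosa-Hes1 replicate 2, and 0 to 5 without any other single library.

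HES1 binds DNA at N boxes (CACNAG) and class C sites (CACGNG, which also takes in the E box CACGTG). Promoter windows of 300 bases from RefSeq on GRCm38.p6 were found for 3 of the 7 genes, *Csf2ra*, *Csf3r* and *Grb2*, the last at 2 start sites. All 4 windows held CACNAG on one of the strands, as did 42.5% of 32851 windows, and those of *Csf2ra* and *Csf3r* held CACGNG, as did 27.5%. The window of *Csf2ra* (chr19:61228369-61228668, minus strand) is shown because it held both motifs, with the matching letters in capitals:
Csf2ra promoter: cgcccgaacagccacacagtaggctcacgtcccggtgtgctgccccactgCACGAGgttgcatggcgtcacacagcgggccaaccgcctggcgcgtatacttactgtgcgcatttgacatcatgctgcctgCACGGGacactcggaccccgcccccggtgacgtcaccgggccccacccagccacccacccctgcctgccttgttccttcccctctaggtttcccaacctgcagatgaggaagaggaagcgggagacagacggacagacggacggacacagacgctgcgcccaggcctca
The first match fits both motifs at once and so is 1 site, not 2. A match is a description of letters, and whether HES1 binds there was not measured.

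The genes most like each member over the 6 libraries were those with the smallest root mean square difference in log2 CPM, after each gene was centered on its own mean, among 12480 genes whose mean level reached 1 CPM. For *Csf1r* they were *Unc13d* (difference 0.016) and *Calu* (0.020), and for *Gab2* *Capg* and *Adipor1* (0.017 each). For *Csf2rb* they were *Bckdha* (0.038) and *Scarf1* (0.041), for *Csf2ra* *Mylpf* (0.047) and *Zfp235* (0.050), and for *Grb2* *Fam20b* (0.0079) and *Gtf2b* (0.0094). The low genes had looser matches, which were *H2-T24* (0.082) and *March5* (0.087) for *Csf3r* and *Rps27rt* (0.067) and *Lzts3* (0.11) for *Gab3*.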

How the data were processed

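RNA-Seq counts of 6 osteoclast cultures were used. Reads were trimmed by the authors and aligned with HISAT2 2.1.0. PCR duplicates were taken out (Picard), and HTSeq gave the count of each gene. The deposited counts are whole numbers without normalization. The submitters' processing notes name GRCm38, where the methods name a human genome, and all identifiers are mouse ones. HTSeq's classes of reads not assigned to a gene, 17.4% to 18.1% of each file, were left out. They take in reads that overlap several genes (5.5% to 6.1%) and reads with several alignments (7.4% to 7.5%). Symbols, positions and exon lengths came from GENCODE M21, which left 0.167% of identifiers without a symbol.

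The groups were tested against each other in edgeR 4.0.16 (R 4.3.3; TMM, robust quasi-likelihood, no covariate) over genes with at least 10 counts in all, with Benjamini-Hochberg adjustment and a threshold of 0.05. The study used DESeq2 with covariates that are not named. Standard errors are the log2 fold change over the square root of F, and intervals cover 95%. Alternatives were DESeq2 1.42.0 (size factors and Wald test), the upper quartile, filterByExpr, no filter, limma-voom (limma 3.58.1), the replicate number as a block, 1 surrogate variable (sva 3.50.0), leaving out each library, and summing *Csf2rb* and *Csf2rb2*. Libraries of a group differed by 10.1 to 19.8 times counting noise (chi-square per degree of freedom).

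The members and lists were chosen with earlier results of these data known. Named were all members, *Csf2rb2*, *Hes1*, the ligands and related receptors, called genes of the other pathway lists (1 is not reported here), and the 2 genes most like each member. Any other gene named, such as *Hmgxb3* and the cell type markers, was chosen after its values were seen.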

Additional observations from a re-analysis of the deposited data

How the results depend on the processing

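Over 15 alternatives, the log2 fold changes of *Csf1r*, *Csf2rb*, *Gab2*, *Grb2*, *Csf3r* and *Gab3* kept their sign in every one and that of *Csf2ra* in 13. The number of members called was 0 in the main analysis, 1 with the upper quartile, filterByExpr or limma-voom, and 2 with no filter, the DESeq2 Wald test or 1 surrogate variable. It was 0 to 3 when 1 library was left out. Over all genes 1399 were called, against 2178 with DESeq2, 2356 with 1 surrogate variable and 265 to 2646 when 1 library was left out. In the pathway lists 6 genes were called, against 11 with no filter, 14 with DESeq2, 17 with 1 surrogate variable and 0 to 13 when 1 library was left out. The cause of these differences was not tested. Deviations of same-numbered libraries correlated at 0.00073, -0.162 and 0.379 over 12494 genes. Libraries with different numbers were not compared, so these values cannot decide whether the numbers pair the samples. With the replicate number as a block 1050 genes, 0 members and 7 pathway genes were called. No member changed its side of the threshold with the block. *Gab3* had 30 to 53 counts per library, the fewest of the 7.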
